A study of Homo sapiens with 4 samples.

Results

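The miRNAs described here are those named miR-1, miR-31, miR-133a, miR-133b, miR-143, miR-145, miR-205 and miR-218. The set was named for stroma, basal epithelium, muscle and loss in tumours, though miR-31 and miR-218 were assigned to none of these cell types here. Its members were found by name in a table of 1096 small RNA entries, of which 516 carry a catalogue name and 580 are predicted. Of the 8 names, 6 have a row, with 1 arm each: miR-31-5p, miR-218-5p, miR-205-5p, miR-1-3p, miR-143-3p and miR-133a-3p. The names miR-133b and miR-145 have no row in the table used here, and none of the 6 rows carries a copy name. The libraries came from PC-3, an established human prostate cancer cell line first grown from a bone metastasis, in DMEM with serum. The 2 control libraries had no treatment, and the 2 apelin libraries came from cells given apelin, a peptide ligand of the APJ receptor, at 10 µg/mL for 24 h. The design asks which miRNAs differ under apelin. Nothing in the labels gives the libraries of a group as independent cultures. Every p-value below rests on the spread among these 4 libraries or fewer, which may be technical. The model-based tests also pool that spread across entries.

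A miRNA pairs with target mRNAs mainly through its seed, bases 2 to 8, and lowers their translation and stability. In muscle, miR-1 and miR-133a are made from shared primary transcripts and shape the contractile programme, while miR-143 and miR-145 mark smooth muscle and other stromal cells. miR-205 marks basal epithelium and, beside the miR-200 family, represses ZEB1 and ZEB2. miR-31 represses integrins and RhoA, and miR-218 comes from introns of the SLIT2 and SLIT3 genes and represses the SLIT receptor ROBO1.

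The mature sequences, from RefSeq (GRCh38.p14), are shown 5′ to 3′ to identify the RNA each row counts, with the seed in capitals. All 6 rows matched a RefSeq entry by name, and miR-133b and miR-145-5p, which have no row, are set beside them.
miR-31-5p: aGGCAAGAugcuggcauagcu
miR-218-5p: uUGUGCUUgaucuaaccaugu
miR-205-5p: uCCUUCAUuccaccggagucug
miR-1-3p: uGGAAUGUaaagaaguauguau
miR-143-3p: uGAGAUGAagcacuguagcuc
miR-133a-3p: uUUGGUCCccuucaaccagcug
miR-133b: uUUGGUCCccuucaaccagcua
miR-145-5p: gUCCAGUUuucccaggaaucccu

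The 6 listed miRNAs have 6 different seeds. miR-133a-3p and miR-133b share a seed and their first 21 bases, and differ by G22A, counted from the 5′ end with the base of miR-133a-3p first. miR-1-3p shares its seed with miR-206 and miR-613, and miR-143-3p shares its seed with miR-4770 and miR-6088, none of which has a row. In the RefSeq table no other mature miRNA has the seed of miR-31-5p, miR-205-5p or miR-218-5p.

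The hairpins lie at sites that separate some of these miRNAs and tie others together. MIR31 is on chromosome 9 from 21512115 to 21512185 (GRCh38, minus strand), in an intron of the noncoding gene MIR31HG. MIR205 is on chromosome 1 from 209432133 to 209432242 (plus strand), overlapping an exon of MIR205HG. MIR143 and MIR145 lie 1622 bases apart on chromosome 5, from 149428918 to 149429023 and from 149430646 to 149430733 (plus strand), within the lincRNA CARMN. MIR1-1 (chromosome 20, 62554306 to 62554376) and MIR133A2 (62564912 to 62565013) are both in MIR1-1HG on the plus strand. MIR133A1 (chromosome 18, 21825698 to 21825785) and MIR1-2 (21829004 to 21829088) are both in MIR133A1HG on the minus strand. The mature miR-1-3p and miR-133a-3p are therefore each encoded at both places, and their counts do not say which hairpin was used.

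miR-218-5p is in the same position, with a hairpin on chromosome 4 from 20528275 to 20528384 (plus strand, intron of SLIT2) and another on chromosome 5 from 168768146 to 168768255 (minus strand, intron of SLIT3). Both hairpins are shown, with the mature 5′ arm in capitals, because that arm is identical at bases 25 to 45 of each and only the rest tells them apart.
MIR218-1: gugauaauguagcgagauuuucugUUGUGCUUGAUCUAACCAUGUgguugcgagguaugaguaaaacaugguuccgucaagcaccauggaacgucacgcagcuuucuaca
MIR218-2: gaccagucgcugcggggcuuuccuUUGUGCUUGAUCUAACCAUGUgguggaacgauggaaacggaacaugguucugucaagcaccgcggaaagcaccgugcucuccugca
The 3′ arms miR-218-1-3p and miR-218-2-3p, which differ between the hairpins, have no row.

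PC-3 cells held these miRNAs at very unequal levels: miR-31-5p was abundant, miR-218-5p and miR-205-5p were measured at lower levels, and the muscle and smooth muscle miRNAs were barely counted. Levels are in TPM, here the count per 1000000 counts of the library with no division by length. By rule, a mean over the 4 libraries of at least 100 TPM was called well measured, at least 10 TPM measured and under 10 TPM low. On that scale 2 members were well measured (miR-31-5p and miR-218-5p), 1 was measured (miR-205-5p), 3 were low and 0 were at 0 in all libraries. The libraries held 5322429 to 6014838 counts, of which the 6 members took 0.838% to 0.893%. Of the members' counts, 93.9% to 95.8% were miR-31-5p. The set was named for miRNAs lost in tumours, but all 4 libraries are of a tumour line, so these levels say nothing of a loss from normal prostate.

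**Figure D1:**
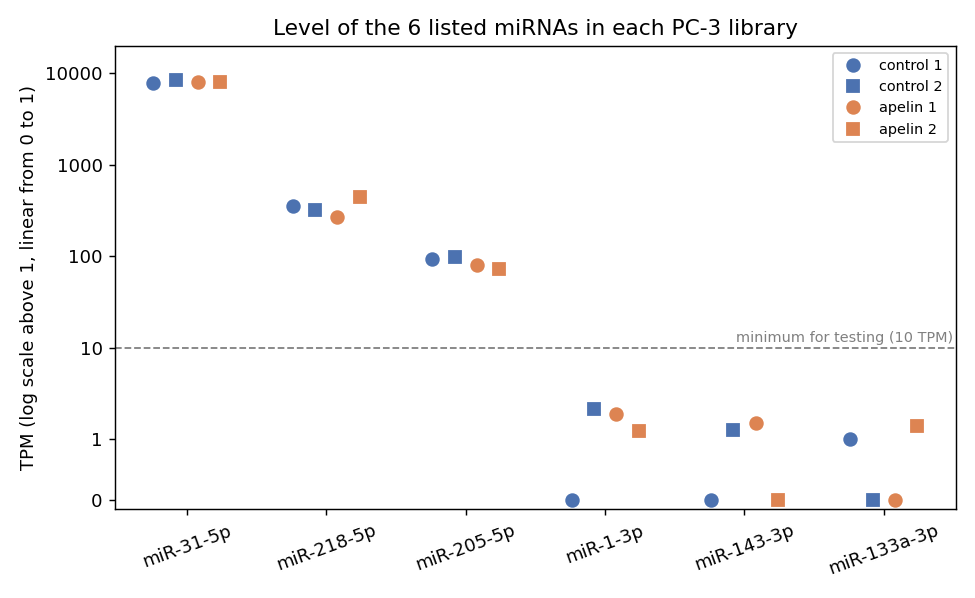
Level of each listed miRNA (x axis) in each library, in TPM on a scale that is linear from 0 to 1 and logarithmic above (y axis), with circles for replicate 1 and squares for replicate 2 of the control (blue) and apelin (orange) libraries. miR-31-5p lies between 7930 and 8511 TPM in every library, miR-218-5p and miR-205-5p lie between 72.3 and 447 TPM, and miR-1-3p, miR-143-3p and miR-133a-3p lie between 0 and 2.12 TPM.

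miR-31-5p stood at 7930 TPM in control 1, 8511 TPM in control 2, 8138 TPM in apelin 1 and 8070 TPM in apelin 2. In TPM, which is scaled by library totals alone, both apelin libraries lay between the 2 controls. It ranked between 26 and 29 among the 516 catalogue entries in every library, and 26 by its mean of 8162 TPM. Its neighbours by mean level were miR-425-5p at 8891 TPM and let-7f-5p, also at 8162 TPM. With 43316 to 48196 counts behind each value, the exact 95% binomial (Clopper-Pearson) interval ran from 7860 to 8002 TPM in control 1 and from 8435 to 8587 TPM in control 2. On this scale of library totals the controls therefore differed by more than the counting error of independent reads. That error is all that these intervals cover. Several amplified reads may stem from 1 molecule, in which case the intervals are too narrow. The TMM scaling of the edgeR fits below had factors of 0.980 and 1.03 in controls 1 and 2. In apelin 1 and 2 the factors were 1.02 and 0.964. Intervals on that scale were not computed, and the order of the libraries can differ on it.

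No difference of miR-31-5p between the groups was detected. Its mean was 8221 ± 410 TPM (SD, n = 2) without apelin and 8104 ± 49 TPM (SD, n = 2) under it. The log2 fold change, apelin minus control, was 0.00089 (SE 0.066, edgeR adjusted p = 0.990). The 95% interval of that estimate ran from -0.21 to 0.21, which is 0.863 to 1.16 times the control level. The sign of so small a value changed with the scaling, to -0.021 with library totals in place of edgeR's TMM scaling. The coefficient of variation of TPM over the 4 libraries was 3.04%, the 5th lowest of the 213 catalogue entries tested, against a median of 14.8%. By the distance between log2(TPM + 1) values over the 4 libraries, each centred on its own mean, the entries with the most similar profile were miR-30c-5p (distance 0.036) and miR-23a-3p (distance 0.059). These distances are descriptions over 4 libraries.

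miR-218-5p stood at 351 TPM in control 1, 318 TPM in control 2, 268 TPM in apelin 1 and 447 TPM in apelin 2. The apelin libraries held both the lowest and the highest value, on either side of the controls. The counts were 2113, 1801, 1428 and 2548 in the same order, and the exact 95% intervals of the apelin libraries, 255 to 283 TPM and 430 to 465 TPM, lay far apart. Its rank among catalogue entries ran from 86 in apelin 2 to 108 in apelin 1. Its neighbours by mean level (346 TPM) were miR-424-3p at 348 TPM and miR-615-3p at 337 TPM.

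The mean of miR-218-5p was 335 ± 24 TPM (SD, n = 2) without apelin and 358 ± 126 TPM (SD, n = 2) under it. The difference was within the spread of the apelin libraries, at 0.12 on the log2 scale (SE 0.37, edgeR adjusted p = 0.909). The 95% interval ran from -1.06 to 1.31, so a level of 0.479 to 2.48 times the control was not told apart from no difference. A single apelin library set the sign: the value was 0.46 without apelin 1 (edgeR adjusted p = 0.379) and -0.40 without apelin 2 (edgeR adjusted p = 0.674). It was 0.22 without control 1 and 0.011 without control 2. Over the 4 libraries the coefficient of variation was 21.8%.

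miR-205-5p, the basal epithelial member, was lower in both apelin libraries than in both controls. It stood at 93.9 TPM in control 1, 97.7 TPM in control 2, 81.0 TPM in apelin 1 and 72.3 TPM in apelin 2, from 565, 553, 431 and 412 counts. The groups did not overlap, as for 17.5% of the 263 tested entries in this direction and 20.9% in the other. Among the 3 tested members this held for 1, miR-205-5p. The exact 95% intervals of the nearest libraries did overlap, at 86.3 to 102 TPM in control 1 and 73.5 to 89.0 TPM in apelin 1. Its rank among catalogue entries ran from 144 to 151, between miR-130a-3p at 91.1 TPM and miR-19a-3p at 86.1 TPM by mean level.

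The mean of miR-205-5p was 95.8 ± 2.6 TPM (SD, n = 2) without apelin and 76.6 ± 6.2 TPM (SD, n = 2) under it, a ratio of 0.800. The log2 fold change was -0.30 (SE 0.14), and it did not pass the edgeR test (adjusted p = 0.627, unadjusted p = 0.127). The 95% interval ran from -0.77 to 0.16. DESeq2 on the same entries gave -0.31 (SE 0.10) and called it (adjusted p = 0.0129). DESeq2 called 20.2% of the 263 entries, and 12.9% were called as lower with apelin. Given only the 207 tested catalogue entries above 0 in all libraries, DESeq2 called 0 of them, in a run chosen after seeing the data. The call of miR-205-5p thus ended (DESeq2 adjusted p = 0.703). The value was negative in all 16 alternative fits that tested it, from -0.36 to -0.29, with adjusted p from 0.0129 to 0.974. An exact two-sided permutation test of the mean TPM gave p = 0.333, the smallest that 2 against 2 libraries allow.

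**Figure D2:**
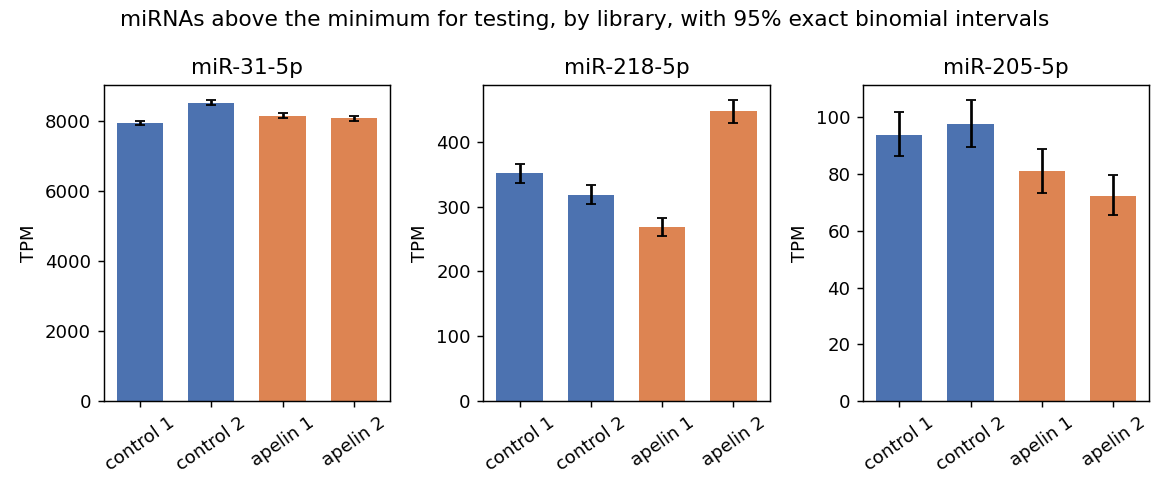
TPM (y axis, from 0) of miR-31-5p, miR-218-5p and miR-205-5p in the control (blue) and apelin (orange) libraries (x axis), with bars for the value and whiskers for its exact 95% binomial interval. miR-205-5p is the member whose apelin bars (81.0 and 72.3 TPM) are both below its control bars (93.9 and 97.7 TPM), while for miR-218-5p the apelin bars are the lowest (268 TPM) and the highest (447 TPM).

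Across the table edgeR called 0 of 263 tested entries (0%). Before adjustment 15 entries (5.7%) had p under 0.05, and 0 of the 3 tested members were in either count. DESeq2 called 1 of the 3, miR-205-5p, and 20.2% of the 263 tested entries. The median log2 fold change was 0.00089 over the 3 tested members and -0.018 over all tested entries. The other 3 members had means under 10 TPM and were not tested. The order of levels, miR-31-5p above miR-218-5p above miR-205-5p, was the same in all 4 libraries, and the ranges of neighbours in that order did not overlap. Within a library the TPM of miR-31-5p was 18.1 to 30.3 times that of miR-218-5p. It was 84.4 and 87.2 times that of miR-205-5p in the controls and 100.5 and 112 times with apelin. Reads of different miRNAs can be captured with different efficiency, which was not measured here.

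**Figure D3:**
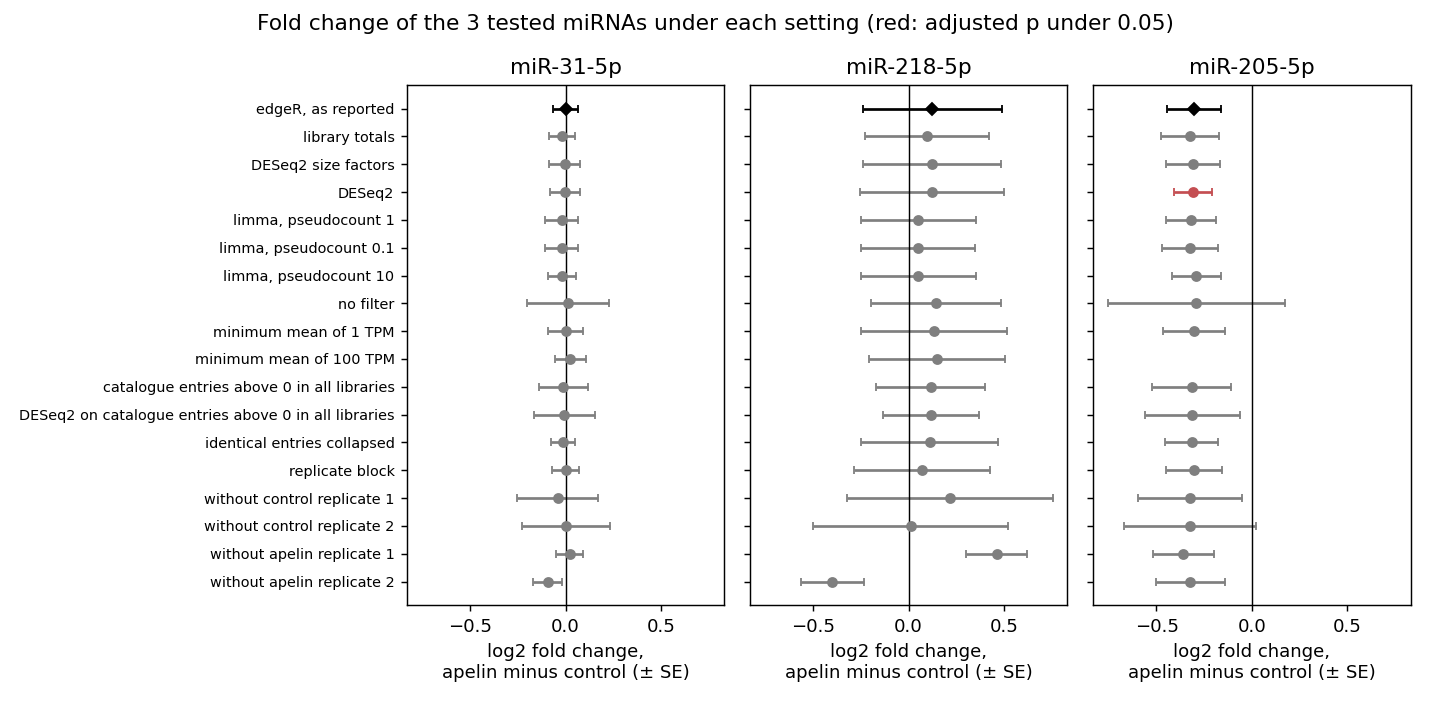
Log2 fold change, apelin minus control (x axis, whiskers ± SE), of the 3 tested miRNAs under the reported edgeR fit (black diamond) and each alternative (circles, red where the adjusted p was under 0.05). miR-205-5p lies between -0.36 and -0.29 in every alternative and is past the threshold in DESeq2 alone, miR-31-5p stays within -0.094 to 0.024, and miR-218-5p moves from -0.40 to 0.46 with the apelin library left out.

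The muscle and smooth muscle members were at the edge of what the table records. miR-1-3p had 0 and 12 counts in controls 1 and 2 (0 and 2.12 TPM), then 10 and 7 in apelin 1 and 2 (1.88 and 1.23 TPM). miR-143-3p, in the same library order, had 0, 7, 8 and 0 counts, or 0, 1.24, 1.5 and 0 TPM. miR-133a-3p, which can share a primary transcript with miR-1, had 6, 0, 0 and 8 counts, or 1, 0, 0 and 1.4 TPM. No member of the 3 was above 0 in all libraries, and libraries of the same group differed in which was counted. miR-143-3p and miR-133a-3p were each above 0 in 1 control and 1 apelin library, and never in the same library as each other.

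The values at 0 cannot be read as an absence. In each library 4 to 7 entries had 1 to 3 counts, whereas 24 to 42 entries had exactly 4 counts in control 2, apelin 1 and apelin 2. In control 1, 2 entries had 4 counts and 26 had 5. Few values thus lie under 4 counts, or under 5 in control 1, so a listed 0 may stand for a few reads, and no upper limit is given for it. The same pattern was general: of the 157 catalogue entries that never exceeded 12 counts, 156 (99.4%) were at 0 in at least 1 library. Exactly 1 library of each group was above 0 for 44 of the 516 catalogue entries, including miR-143-3p and miR-133a-3p. With no filter on low values, edgeR gave miR-1-3p a standard error of 3.73 on the log2 scale, miR-143-3p 5.67 and miR-133a-3p 5.86, each with an adjusted p of at least 0.973. A difference of these members between the groups was not detectable in these counts.

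**Figure D4:**
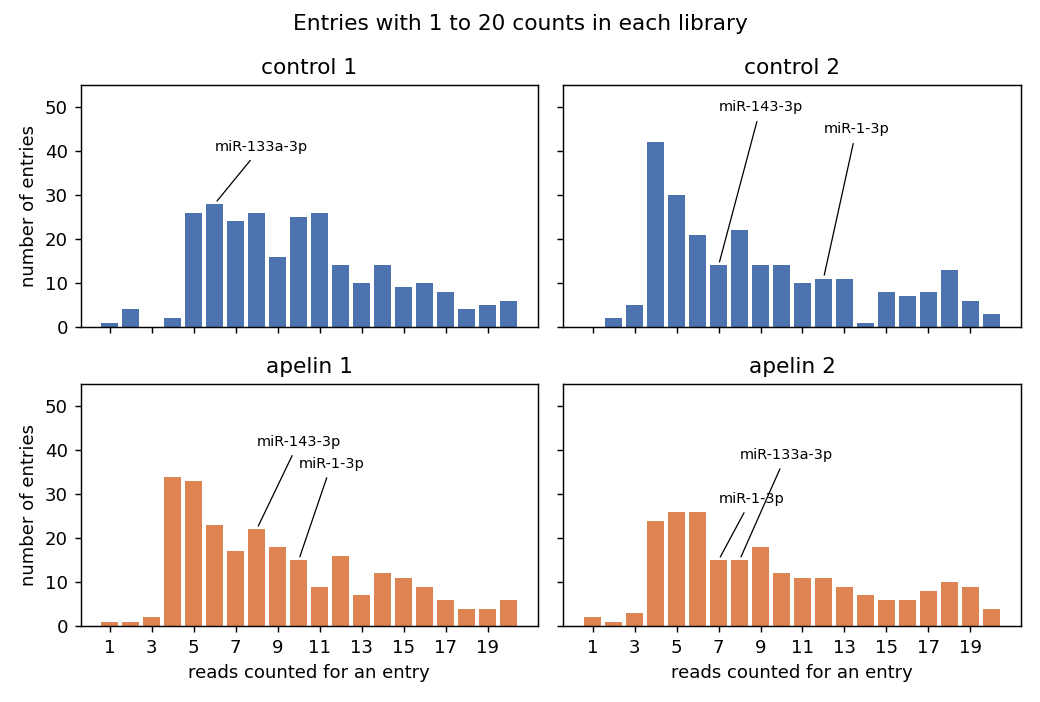
Number of entries (y axis) with each count from 1 to 20 (x axis) in each library, for controls (blue) and apelin (orange), with lines to the counts of the low members where these were above 0. Counts of 1 to 3 are nearly missing in every library (4 to 7 entries), and miR-1-3p, miR-143-3p and miR-133a-3p sit between 6 and 12 counts, just above that edge.

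Other miRNAs of the same tissues were looked up by name to place these levels. Of the other muscle miRNAs, miR-206, miR-208a and miR-208b have no row and miR-499a-5p stood at 2.30 to 3.82 TPM in controls and 1.93 to 2.44 TPM with apelin. Of 7 fibroblast and stromal names, 6 have a row and 1, miR-10b-5p, was tested, at 1847 to 2184 TPM over the libraries. The other 5 (miR-409-3p, miR-199a-3p, miR-199b-3p, miR-214-3p and miR-379-3p) were low, with means from 0.907 to 6.45 TPM. miR-199a-3p and miR-199b-3p have identical counts. The stromal rows summed to 2057 and 2201 TPM in controls and 1866 and 2077 TPM with apelin. miR-10b-5p made up nearly all of this sum.

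Of the 5 other epithelial rows, 3 stood above miR-205-5p by mean level and 2 stood below it. Of 7 epithelial names, miR-141 and miR-203b have no row, and 4 of the 5 listed rows were tested. miR-200b-3p, of the ZEB-repressing family, stood at 6467 to 6915 TPM, miR-200a-3p at 903 to 1216 TPM and miR-429 at 337 to 468 TPM. miR-203a-3p, an epidermal miRNA, had 15 counts in control 1 and was at 0 elsewhere. miR-200c-3p was lower than miR-205-5p in every library, at 33.3 and 33.2 TPM in controls and 25.9 and 23.0 TPM with apelin. In edgeR 0 of the 4 were called, and in DESeq2 1, miR-200c-3p, where DESeq2 called 20.2% of all 263 tested entries. The sum was 7950 and 8288 TPM in controls and 7785 and 8174 TPM with apelin.

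Of the other cell types, the listed endothelial, white blood cell and liver rows had means under 10 TPM. The red cell row and 3 of the 4 neuronal rows were above that minimum. The endothelial miR-126-3p stood at 6.32 and 7.24 TPM in controls and 6.95 and 13.7 TPM with apelin. The white blood cell rows, miR-223-3p and miR-150-5p, summed to 0.71 to 4.66 TPM over the libraries, and miR-142 has no row. The red cell miR-486-5p stood at 35.7 and 37.1 TPM in controls and 33.8 and 28.2 TPM with apelin, while miR-451a and miR-144 have no row. The liver miR-122-5p stood at 1.75 to 4.82 TPM. Of the neuronal names miR-124 has no row, and miR-129-5p was low, with a mean of 3.455 TPM. The rows miR-128-1-3p, miR-128-2-3p and miR-9-5p were tested, with means of 1374, 1202 and 324 TPM. Of these edgeR called 0 and DESeq2 called 1, miR-128-1-3p, where DESeq2 called 20.2% of all 263 tested entries. The miR-128 rows carry copy names, so reads they share may be counted in both. With both included, the rows of the neuronal list summed to 3098 and 3153 TPM in controls and 2565 and 2798 TPM with apelin. Their part in the values of miR-205-5p was not tested. In bulk RNA such as this, fewer cells holding a miRNA and less of it per cell cannot be told apart.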

How the data were processed

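Small RNA was sequenced from 4 PC-3 libraries, grouped by sample title. Per the submitters' processing notes, the authors used Trimmomatic 0.30 and DESeq2. Sources used here name no aligner, miRNA catalogue or genome build. The authors deposited raw counts and TPM values for each entry. TPM equalled counts per 1000000 within 0.005, or 0.151 in apelin 2. No column went unmatched.

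Entries with a mean of at least 10 TPM (263, of which 213 catalogue) were tested with edgeR's quasi-likelihood test (4.0.16, TMM), two-sided, with Benjamini-Hochberg adjustment over all 263 and a threshold of 0.05. Each edgeR SE divides the fitted value by the root of its F statistic. The DESeq2 SE is the one DESeq2 gives, and the limma SE divides the fitted value by its t statistic. DESeq2 1.42.0, limma 3.58.1 (pseudocounts 1, 0.1 and 10), other scalings and filters, a replicate block and each library left out were alternatives. Tests were checked on simulated data. Versions were R 4.3.3 and Python 3.11.15. Sequences came from RefSeq and host genes from GENCODE release 29.

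The members and lists were chosen with earlier results of these data known. Every member is named, and the 3 tested ones with their neighbours in mean level.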

Additional observations from a re-analysis of the deposited data

How the results depend on the processing

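The count of called entries, 0 with edgeR, was 53 with DESeq2, 4, 5 and 4 with limma at pseudocounts of 1, 0.1 and 10, 52 with no filter, 4 at a minimum of 100 TPM and 0 to 19 with a library left out. It was 11 without control 1 and 19 without control 2. The count of called members was 0 except for 1 (miR-205-5p, -0.31) with DESeq2. The number of members at 10 TPM or more was 3 and became 4 at 1 TPM, 2 at 100 TPM and 3 at 10 TPM in every library or with any library left out. miR-31-5p, near 0, turned to -0.021 with library totals, -0.0049 with DESeq2 or its size factors, -0.020 with limma at each pseudocount, -0.011 on catalogue entries above 0 in all libraries (-0.0079 with DESeq2) and -0.012 with identical entries collapsed. It ran from -0.094 to 0.022 with a library left out. miR-218-5p ran from -0.40 to 0.46 and miR-205-5p from -0.36 to -0.32 with a library left out. miR-205-5p was not tested at a minimum of 100 TPM, which its mean does not reach. The cause was not tested. Fits with a library left out rest on fewer samples, and the lone library of a group was then assumed to vary like the others. With the replicate block, edgeR called 0 of 263 entries and gave miR-31-5p 0.00045, miR-218-5p 0.071 and miR-205-5p -0.30. No label ties equal numbers to a shared culture or day, and over 207 entries the deviations of equal numbers correlated at 0.312. The low members had 14 to 29 counts in all. That DESeq2 run on catalogue entries called 0 of 207 entries and was added once the data had been seen.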

Other observations

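The table lists a length for each entry, which the sources used here do not define. For 4 of the 6 members it exceeds the RefSeq mature length. miR-31-5p is listed at 23 nt against 21 nt in RefSeq, miR-205-5p at 23 nt against 22 nt, and miR-218-5p and miR-143-3p at 22 nt against 21 nt. miR-1-3p and miR-133a-3p are listed at their RefSeq length of 22 nt. Of the 452 catalogue entries matched to RefSeq by name, 31.6% were longer in the table, 213 were equal and 96 were shorter. An excess of at least 2 nt, as for miR-31-5p, was found for 34 of them (7.52%).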
